A study of Mus musculus with 30 samples.

Results

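The sites described here are 725 of the 69316 accessible chromatin regions (peaks) measured in mouse T cells. Each was more open in regulatory T cells (Treg) that carry the Foxp3 substitution R397W than in their Foxp3 wild-type counterparts. A site was a member if its mean score in Foxp3R397W Treg was at least 30 and if its mean log2(score + 1) over both libraries was higher by at least 1 than in the columns named for Foxp3 wild-type Treg. The members were thus chosen by the measured scores of Foxp3R397W and control libraries, so the comparison of Foxp3R397W with its control is given as a description with no test. The questions left for testing were whether the same sites closed when Foxp3 was returned by retrovirus to Treg that lack it, and how open they were in naive and other T cells.

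Foxp3 is the forkhead transcription factor that defines Treg, a CD4+ T cell lineage that restrains immune responses. It switches on part of the Treg program and keeps down cytokine and other genes of conventional T cells, and R397W lies in its DNA-binding forkhead domain and is known from patients with the autoimmune disease IPEX. BATF is a basic leucine zipper factor of the AP-1 family that pairs with JUN proteins and is required for effector Treg. ATAC-seq inserts sequencing adapters into open chromatin, so a peak's score measures how accessible that stretch of DNA was across the cells of a library.

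The series holds 30 samples, all from lymph nodes and spleen, and each of the 13 groups used here has 2 libraries. Every group carries the human CD2 (hCD2) reporter at Foxp3. Foxp3R397W Treg (Foxp3R397W-IRES-hCD2/Foxp3-IRES-GFP) and their control (Foxp3WT-IRES-hCD2/Foxp3-IRES-GFP) were sorted as CD4+hCD2+GFP- cells from animals whose other Foxp3 allele is intact and marked by GFP. The labels give the control genotype to 4 samples, and the column names do not say which 2 of them they hold. WT Treg, conventional T cells (Tconv), central Treg (cTreg, hCD2+ CCR7hiCD62LhiCD44lo), effector Treg (eTreg, hCD2+ CCR7loCD62Llo), naive T cells (Tnaive, hCD2- with the cTreg markers) and effector T cells (Teff, hCD2- with the eTreg markers) carry Foxp3-IRES-hCD2, and BATFKO Treg are Foxp3-IRES-hCD2.Batf-/-. The DKO Treg are Foxp3KO-IRES-hCD2.Batf-/- cells with mock virus, Foxp3 virus, BATF virus or both, sorted as CD4+hCD2+ cells positive for GFP, Thy1.1 and CD45.2 and negative for CD45.1. Every DKO group, mock included, thus lacks Batf and carries the Foxp3KO allele, and the labels do not say what GFP and Thy1.1 mark. The column names of the DKO libraries also hold the word vivo. All groups but the DKO, whose strain is not in the labels, are C57BL6/J, and no age is given. The titles give omniATAC-seq for the Foxp3R397W, control and DKO samples and ATAC-seq for the others, so levels of the 2 sets differ in protocol as well. No label says that the 2 libraries of a group came from separate animals, so p-values measure the spread between libraries, which may be technical. Depth was 3716499 to 25462278 reads in peaks per library. At the typical member that amounted to 34 and 44 reads in the mock libraries and 12 and 13 in those with both viruses, so 49 members had 3 reads or fewer in each of the latter. Such counts cover counting error only.

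Names had to be taken with care. A second deposited table holds 22 libraries, of which 18 are also among the 26 used here, and 12 of those 18 carry another name there. The pair called Foxp3R397W Treg here is called eTreg there, and the control pair is called cTreg. The pair called cTreg here is called Foxp3R397W Treg there, and the pairs called eTreg, Tnaive and Teff here carry the names of Foxp3 wild-type and Foxp3KO Treg. The WT Treg, BATFKO and Tconv libraries have the same names in both tables, and the DKO libraries are only in the larger one, so these names are not in dispute. At the peak inside Foxp3 (chrX:7583922-7584322) the libraries called Tnaive here scored 1.28 and 9.07 and those called Teff 7.84 and 7.83, like Tconv at 4.90 and 13.6, while every library named as Treg here was at 316 or more. At the Batf peak (chr12:85686411-85686811) both BATFKO libraries were at 0, the 8 DKO libraries were at 12.3 or less, and all the others were at 265 or more. The 4 libraries called Tnaive and Teff here, which were low at the Foxp3 peak, are called Treg in the smaller table. The names of the larger table are used below.

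Sequence was at hand only for windows at annotated gene starts, from 250 bases before to 50 after the start in RefSeq for build GRCm38.p6. Only 10 of the 725 sites overlapped such a window. The windows of 4 are printed because they mark the spread of the set: Pdlim4 and Fam240a lie in runs of neighbouring gained sites, Fbln1 has a further 3 gained sites in its body, and Lpar3 is among the few sites closed in naive cells. They lie at chr11:54068968-54069267, minus strand for Pdlim4, chr9:110916849-110917148, minus strand for Fam240a, chr15:85205758-85206057, plus strand for Fbln1 and chr3:146220711-146221010, plus strand for Lpar3. Capitals mark the bases inside the gained peak, and each window is written 5′ to 3′ on the gene's strand.
Pdlim4: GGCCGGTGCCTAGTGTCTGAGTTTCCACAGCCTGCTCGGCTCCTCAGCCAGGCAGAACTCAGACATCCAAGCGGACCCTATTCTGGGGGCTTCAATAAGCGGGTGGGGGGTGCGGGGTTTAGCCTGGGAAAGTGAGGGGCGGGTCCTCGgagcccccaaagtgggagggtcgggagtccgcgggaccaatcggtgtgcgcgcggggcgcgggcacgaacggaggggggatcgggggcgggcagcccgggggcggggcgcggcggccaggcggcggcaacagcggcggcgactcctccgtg
Fam240a: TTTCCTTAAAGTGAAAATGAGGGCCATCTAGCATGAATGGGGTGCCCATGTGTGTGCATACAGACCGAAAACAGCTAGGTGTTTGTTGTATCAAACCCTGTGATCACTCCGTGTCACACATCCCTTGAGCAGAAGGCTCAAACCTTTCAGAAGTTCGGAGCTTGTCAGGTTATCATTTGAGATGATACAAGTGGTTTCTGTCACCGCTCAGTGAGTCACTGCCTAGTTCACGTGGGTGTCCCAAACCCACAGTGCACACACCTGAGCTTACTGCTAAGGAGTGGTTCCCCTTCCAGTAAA
Fbln1: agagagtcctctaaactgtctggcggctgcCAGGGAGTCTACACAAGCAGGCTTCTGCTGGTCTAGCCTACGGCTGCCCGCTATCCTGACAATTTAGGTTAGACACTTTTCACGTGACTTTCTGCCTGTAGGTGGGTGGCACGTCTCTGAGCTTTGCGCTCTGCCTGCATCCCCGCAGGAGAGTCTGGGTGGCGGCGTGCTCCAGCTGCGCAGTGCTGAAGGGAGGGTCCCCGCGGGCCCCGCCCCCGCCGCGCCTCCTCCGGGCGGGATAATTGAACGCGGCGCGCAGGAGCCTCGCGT
Lpar3: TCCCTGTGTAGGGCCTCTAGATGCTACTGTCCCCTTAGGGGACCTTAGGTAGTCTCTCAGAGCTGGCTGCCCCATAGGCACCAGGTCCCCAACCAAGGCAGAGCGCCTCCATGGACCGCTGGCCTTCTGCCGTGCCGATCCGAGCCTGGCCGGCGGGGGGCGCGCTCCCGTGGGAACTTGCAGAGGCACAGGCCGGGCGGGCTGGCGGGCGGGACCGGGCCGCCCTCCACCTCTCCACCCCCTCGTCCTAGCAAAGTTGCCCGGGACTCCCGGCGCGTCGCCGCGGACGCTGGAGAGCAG
The 10 windows were searched on both strands for 11 short words known from transcription factor sites. The AP-1 word TGANTCA was in 3 of the 10 (Muc13, Wnt5b and Fam240a), against 6.99% of the 21005 promoter windows of protein-coding genes. At Muc13 and Wnt5b the word lay in the part of the window outside the gained peak. Only at Fam240a did it lie inside the peak. The E-box word CAGCTG was in Fbln1 alone (15.7% of all windows) and the GATA word AGATAA in H2bfm alone (9.60%). The forkhead word TGTTTAC was in none of the 10 and in 3.02% of all windows. The words TGTGGTT (RUNX, 4.72%), CAGGAAG (ETS, 12.5%), CTTTGAT (TCF/LEF, 3.22%), GGAAAA (NFAT, 22.2%), GGGANTTCC (NF-kB, 1.86%), TCACACC (T-box, 3.64%) and GGGTGTG (KLF, 8.06%) were in none either. These are counts of letters in 10 windows and bear on no other member. By base composition 1 of the printed windows, that of Fam240a (48.0% G and C), was below the median of all windows (56.7%), and those of Fbln1 (64.0%), Lpar3 (70.3%) and Pdlim4 (71.7%) were above it.

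The gained sites lay away from gene starts. A promoter window was touched by 1.38% of them, against 12.2% of all peaks and 18.6% of the 41921 peaks with a mean score of at least 30 in Foxp3R397W Treg. Of the members, 415 (57.2%) lay in a gene body, 237 between genes and 63 farther than 100 kb from any protein-coding gene body. Windows were listed for 17491 of 21896 protein-coding genes, so the promoter shares are too low for every set alike. The 1680 peaks that met the mirror rule (lost with Foxp3R397W) touched a promoter window at 1.73%, close to the gained sites.

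In the libraries that chose them, the median score of the members was 56.8 and 61.8 in Foxp3R397W Treg and 23.9 and 23.4 in the control. The log2 difference ran from 1.0007 to 2.98 with a median of 1.23, and 22 members differed by 2 or more. Both Foxp3R397W libraries were above both control libraries at 724 of the 725, which largely follows from the choice. No such share was computed for all peaks. With 139 members at 1.5 or more, most lay near the limit of the rule.

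The site near Nemp2, which encodes a protein of the inner nuclear membrane, was among the largest differences with high scores (chr1:52650080-52650480, gene body). It scored 243 and 177 in the Foxp3R397W libraries and 48.5 and 34.8 in the control, a log2 difference of 2.31. Dapl1, a gene known from naive and memory T cells, had a site 22647 bp from its body (chr2:59527667-59528067) at 42.8 and 42.7 against 11.95 and 5.35. A site between P4ha2 and Pdlim4 (chr11:54090122-54090522) scored 47.8 and 46.2 against 7.61 and 6.02. At these 3 sites the mutant and control libraries, which had chosen them, did not overlap. The largest difference of all, 2.98, was at a site with no protein-coding gene within 100 kb (chr7:125195524-125195924), at 45.0 and 23.7 against 3.98 and 2.67. Further sites with a difference above 2 lay in or near Gadl1 (2.34), Cp (2.33), Sfmbt2 (2.27), Hmcn1 (2.25), Cnot10 (2.22), Zmat4 (2.21), Prep (2.21), Atp8b4 (2.19) and Klf7 (2.16).

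At the other end, the member near Nr4a1, an early response gene of T cell receptor signalling, was among the 3 that passed the limit by the least (157 and 151 against 85.5 and 68.2). A peak in Ptpn14 missed it at 0.9998, with scores of 28.1 and 37.8 against 15.57 and 16.05. The limit therefore separates sites that look alike, and the number of members moved with it. It was 551 with a pseudocount of 5 and 879 with quantile scaling, of which 710 were shared. Leaving out 1 library gave 1118 sites without Foxp3R397W library 1 and between 785 and 906 without any of the other 3, and 534 to 616 of these were members. In the smaller table, the same libraries under their other names had a difference above 0 at 718 of 718 matched members, and 667 passed the rule. In all, 1296 sites passed the rule there.

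The sites gained with Foxp3R397W were open in the libraries that the larger table calls Tnaive. Their median score was 153 in each Tnaive library, higher than in any other library of the 26, and 683 (94.2%) had a mean of at least 30 there. Tconv followed at 114 and 127. Foxp3R397W Treg at 56.8 and 61.8 lay between these and the control, and the score in Foxp3R397W Treg was below that in Tnaive at 616 members and below that in Tconv at 579. In bulk libraries a site open in fewer cells and a site less open in every cell cannot be told apart. Among all 41921 peaks with a mean of at least 30 in Foxp3R397W Treg, 85.9% reached 30 in Tnaive and the median was 107, against 155 for the members. The lost sites had a median of 6.45 in Tnaive. The pair that only the smaller table holds and calls Tnaive had member medians of 63.8 and 58.8, below its medians over all peaks of 109.8 and 108. At the peak inside Foxp3 that pair scored 1035 and 1085, and the Tconv libraries scored 3.81 and 8.60 there.

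**Figure D1:**
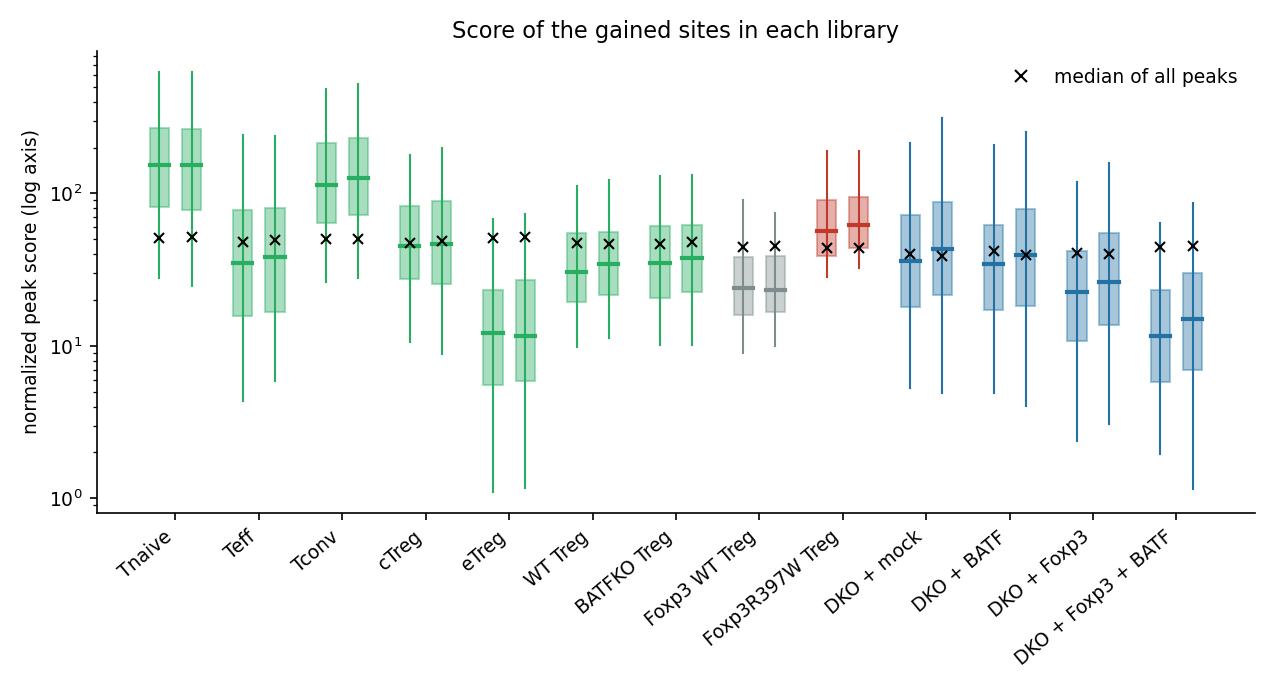
Normalized peak score (log axis) of the 725 gained sites in each of the 26 libraries, 2 per group: thick line, median; box, middle 50%; thin line, 5th to 95th percentile; cross, median of all 69316 peaks in that library. The sites were highest in Tnaive (153 and 153) and lowest in eTreg (12.2 and 11.7) and in DKO Treg with both viruses (11.7 and 14.97). Foxp3R397W and its control chose the sites.

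Among the 13 groups, Tnaive had the highest mean at 465 members, Tconv at 120 and Foxp3R397W Treg at 55. The lowest mean was in eTreg at 325 and in DKO Treg with both viruses at 247. The order of medians from Tnaive down was Tconv, Foxp3R397W, cTreg (45.3 and 46.3), then Teff (34.8 and 38.2), mock DKO (35.8 and 43.0), BATFKO (34.9 and 37.9) and DKO with BATF virus (34.6 and 39.4), whose library medians overlap. WT Treg (30.6 and 34.7), DKO with Foxp3 virus (22.6 and 26.1) and the control (23.9 and 23.4) came next. Medians of all peaks lay between 39.1 and 51.8 in the 26 libraries.

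The members with the highest naive scores had values above 1000 there. One in the body of Unc80 (chr1:66552614-66553014) scored 2195 and 2060.1 in Tnaive, 168 and 163 in Foxp3R397W Treg, 90.9 and 71.5 in the control and 154 and 146 in eTreg. A second site in Aqr, the gene of an RNA helicase of the spliceosome (chr2:114145175-114145575), scored 1388 and 1363 in Tnaive, 550.4 and 582 in Foxp3R397W Treg and 284 and 272 in the control. At both sites both Tnaive libraries were above every Treg library, and Foxp3R397W libraries were above the control. The Unc80 site was lower in Foxp3R397W Treg than in cTreg (331 and 462). By contrast, 500 members were higher in Foxp3R397W Treg than in cTreg, 490 of them also higher than in eTreg. The members were chosen for high Foxp3R397W scores, so these counts follow in part from the choice. No such share was computed for all peaks.

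The members were lower in Treg than in Tconv, a comparison that rests on no disputed name and shares no library with the choice of the sites. Of the 725, 587 were lower in WT Treg and 4 were higher (limma, Benjamini-Hochberg adjusted p under 0.05 over all peaks). Over all peaks 9.92% were lower and 10.1% higher. The median log2 change of the members was -1.79, against 0.01 for all peaks. Nemp2 scored 39.1 and 26.5 in WT Treg and 335 and 373 in Tconv, a change of -3.41 ± 0.24 (SE, adjusted p = 3.5e-11). Another Aqr site, at chr2:114136745-114137145, scored 20.8 and 11.2 against 495 and 452, a change of -4.86 ± 0.44 (SE, adjusted p = 2.7e-09). The 4 members higher in Treg lay near Ccl20, Ncoa7, Prr5l and Ccdc22. They were named for this call after their values were seen, and the call at Ncoa7 was lost without any 1 of the 4 libraries. The call at Ccl20 was lost without WT Treg library 1 (2.51), WT Treg library 2 (2.54) or Tconv library 2 (0.62), and that at Prr5l without WT Treg library 1 (0.76).

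The libraries called eTreg and Teff in the larger table were lower at the members than those called cTreg and Tnaive. From cTreg to eTreg 569 fell and 25 rose, with a median of -1.89, where 17.4% of all peaks fell and 19.7% rose. From Tnaive to Teff 594 fell and 20 rose, with a median of -1.92, where 19.6% of all peaks fell and 20.7% rose. These comparisons share no library, and 518 members fell in both, which is 91.0% of the first count and 87.2% of the second. Among all members 78.5% fell in the first and 81.9% in the second, and the joint share over all peaks was not computed. From Tnaive to cTreg 529 were lower and 6 higher, with a median of -1.55, beside 7.82% and 8.8% of all peaks. A site in Satb1, the gene of a chromatin organizer of T cell development (chr17:51800233-51800633), scored 199.95 and 164 in cTreg and 7.76 and 9.36 in eTreg, a change of -4.26 ± 0.33 (SE, adjusted p = 4.3e-11). Under the names of the smaller table, which was normalized separately, the direction turns. There the pair called eTreg (Foxp3R397W Treg here) had member medians of 129 and 164 and the pair called cTreg (the control here) 57.9 and 62.0. The difference between these pairs chose the members, so their order follows from the choice. The pairs called Teff and Tnaive, which are not among the 26, had 137 and 126 and 63.8 and 58.8. At the peak inside Foxp3 this Teff pair scored 695 and 733 and this Tnaive pair 1035 and 1085, where Tconv scored 3.81 and 8.60.

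Returning Foxp3 alone to DKO Treg lowered part of the gained sites. The median score was 35.8 and 43.0 in the mock libraries and 22.6 and 26.1 with Foxp3 virus. The change was below 0 at 626 of 725 members, with a median of -0.71 against -0.03 for all peaks. By the test, 105 members fell and 1 rose, where 0.814% of all peaks fell and 1.01% rose. Both Foxp3 libraries were below both mock libraries at 441 members (60.8%), as at 17.6% of all peaks.

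The Nemp2 site scored 307 and 318 in mock DKO Treg and 80.7 and 99.8 with Foxp3 virus. The change was -1.79 ± 0.24 (SE, adjusted p = 0.00016). The Bpgm site (chr6:34495046-34495446, in the gene of a red cell glycolysis enzyme) went from 88.6 and 122 to 16.1 and 23.0, a change of -2.37 ± 0.30 (SE, adjusted p = 7.7e-05). At both sites the libraries with and without Foxp3 did not overlap. With Foxp3 the Bpgm site was below the wild-type control (26.4 and 28.8), while Nemp2 stayed above the control scores given earlier. Those control libraries had a part in choosing the sites.

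The Aqr site at chr2:114136745-114137145 fell the most, from 85.4 and 84.1 to 3.23 and 16.9 (log2 change -3.30 ± 0.44 SE, adjusted p = 0.00013). The Dapl1 site fell from 55.9 and 62.6 to 5.38 and 10.7 (log2 change -2.80 ± 0.43 SE, adjusted p = 0.00077). Both pairs of libraries stood apart, although the Foxp3 libraries differed among themselves. Further falls lay at Arvcf (-2.73), Tnks, the gene of tankyrase (-2.14), Gm7244 (-1.94), Gsx1 (-1.89), Bend7 (-2.10) and Cblb, which encodes a ubiquitin ligase that limits T cell activation (-2.29). At Prrc1 the mock libraries scored 11.6 and 16.6 and the Foxp3 libraries 2.15 and 0. At Chl1 they scored 5.27 and 6.84 with mock and 0 and 0 with Foxp3, so few reads that no fold is given. The member that rose lay near 2410004P03Rik, from 1.05 and 1.96 to 8.61 and 7.67.

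The count of 106 called members rested on the fit more than the direction did. It was 26 without mock library 2, 45 with quantile scaling and 48 when only the mock and Foxp3 libraries were fitted, and each of these calls was a fall. The Bend7 call was lost without mock library 2 (-1.38). The Cblb call was lost without mock library 1 (-2.20), Foxp3 library 1 (-1.58) or mock library 2 (-2.39). The rise near 2410004P03Rik was lost without mock library 1 (1.63), Foxp3 library 1 (1.82), mock library 2 (2.15) or Foxp3 library 2 (1.96). The calls at Nemp2, Dapl1, this Aqr site, Bpgm, Tnks, Gsx1, Gm7244, Arvcf, Prrc1 and Chl1 stood without any 1 of the 4 libraries.

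**Figure D2:**
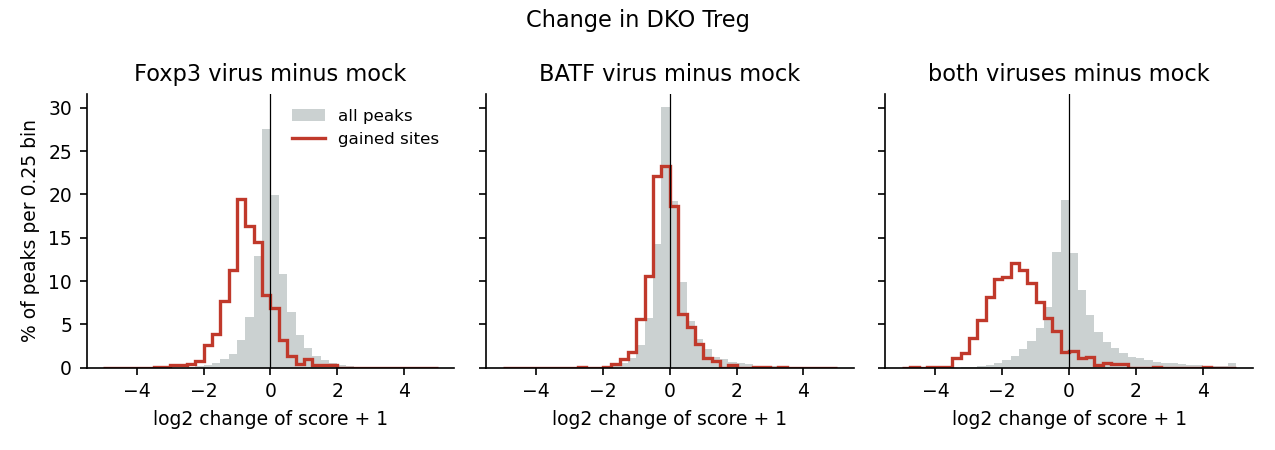
Share of peaks (%) per 0.25 of log2 change of score + 1 in DKO Treg, for Foxp3, BATF or both viruses minus mock; red line, the 725 gained sites; grey, all 69316 peaks; changes beyond 5 are drawn in the last bin. The member medians were -0.71, -0.16 and -1.55, and the 3 panels share the mock libraries.

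With both viruses the sites closed further. The median score was 11.7 and 14.97 with Foxp3 and BATF, and 529 members fell and 8 rose against mock, where 10.5% of all peaks fell and 12.9% rose. The median change was -1.55, against -0.04 for all peaks, and 617 members (85.1%) had both libraries below both mock libraries, as did 27.3% of all peaks. Against BATF virus alone, the addition of Foxp3 lowered 478 members and raised 1, with a median of -1.43, where 7.01% of all peaks fell and 7.08% rose. The Foxp3 effect without BATF and the Foxp3 effect with BATF share no library. Of the 105 sites that fell in the first, 98 (93.3%) also fell in the second, where they were 20.5% of the 478. Among all members 14.5% fell in the first and 65.9% in the second, and the joint share over all peaks was not computed. Across the 725 sites the log2 changes of these comparisons had a Pearson r of 0.44 and a Spearman rho of 0.40, as a description of sites that share libraries and depth within each comparison.

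Nemp2 was at 33.0 and 38.0 with both viruses, a change of -3.10 ± 0.24 (SE, adjusted p = 1.0e-10) from mock. The same Aqr site was at 3.88 and 4.61 (log2 change -4.03 ± 0.44 SE, adjusted p = 4.1e-08) and Bpgm at 11.7 and 9.21 (log2 change -3.21 ± 0.30 SE, adjusted p = 3.4e-09). Zmat4, which encodes a zinc finger protein, went from 90.7 and 143 with mock to 43.0 and 49.1 with Foxp3 and 14.6 and 12.7 with both viruses (log2 change -2.98 ± 0.27 SE, adjusted p = 1.5e-09). In these 4 sites all libraries with both viruses lay below all libraries with mock. At Zmat4 the change with Foxp3 alone (-1.29) passed the test, but not without mock library 2 (-0.96). The largest falls with both viruses were near Mosmo (-4.52) and at Aqr, and Mosmo was named after its value was seen. With neither Foxp3 alone nor both viruses did 187 members fall, among them the Cp site, which was already at 6.33 and 3.91 in mock DKO Treg and at 631 and 640.1 in Tnaive.

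**Figure D3:**
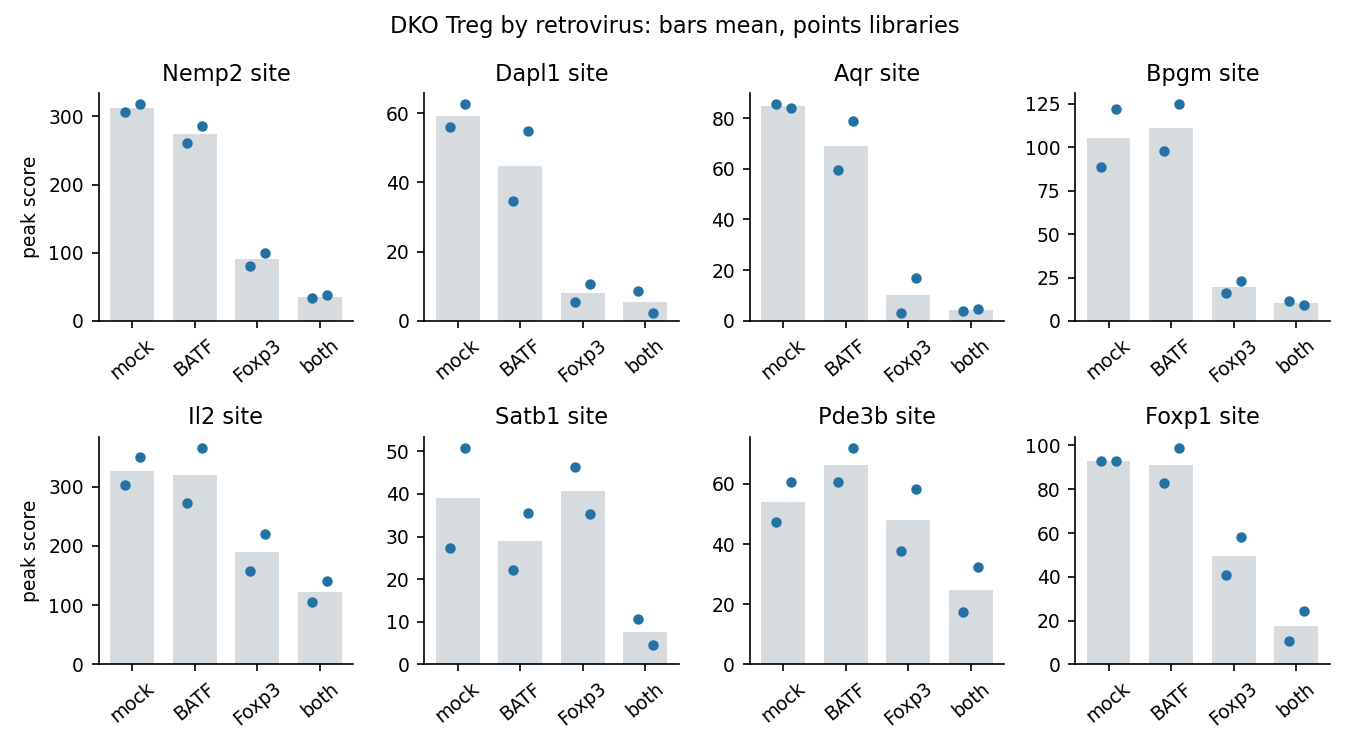
Peak score in DKO Treg with mock, BATF, Foxp3 or both viruses at 8 gained sites, named for the nearest gene; bars, mean of 2 libraries; points, libraries. At Nemp2, Dapl1, Aqr and Bpgm the score was lower with Foxp3 alone; at Satb1 and Pde3b it overlapped mock with Foxp3 alone and was lower with both viruses.

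In a comparison added after the data were seen, 310 members were lower and 18 higher with both viruses than with Foxp3 alone (median -0.88), where 7.54% of all peaks were lower and 10.6% higher. That count was 207 in all without Foxp3 library 2 and 143 when only these groups were fitted. With BATF alone 7 members fell and 5 rose against mock, where 0.291% of all peaks fell and 3.2% rose, with a member median of -0.16. The count of 12 was 2 without mock library 2. Those that rose included Pmp22, a gene of a myelin protein, Ctnnd2 and Mib1, a ubiquitin ligase gene of the Notch pathway, all named after their values were seen, with changes of 3.50, 2.93 and 2.66. The calls at Ctnnd2 (2.11, adjusted p = 0.051) and Mib1 (1.96, adjusted p = 0.055) were lost without mock library 2 (limma).

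The difference between the Foxp3 effect with BATF and the Foxp3 effect without it was tested itself, also as an added comparison. Of the members 42 fell more with BATF present and 1 fell less, where 0.506% of all peaks had a lower and 0.586% a higher difference, and the member median was -0.71. The Satb1 site at chr17:51800233-51800633 scored 27.4 and 50.8 with mock, 46.3 and 35.3 with Foxp3, 22.3 and 35.5 with BATF and 10.7 and 4.61 with both. Foxp3 alone gave 0.11 ± 0.33 (SE, adjusted p = 0.94), both viruses -2.25 ± 0.33 (SE, adjusted p = 5.8e-06), and the difference of the Foxp3 effects was -1.96 ± 0.47 (SE, adjusted p = 0.037). At Satb1 the libraries with both viruses lay below all others, while mock and Foxp3 libraries overlapped. Its call of the difference was lost without mock library 1 (-1.53), Foxp3 library 1 (-1.77), Foxp3 library 2 (-2.15), BATF library 2 (-1.63) or library 2 with both viruses (-1.43). The Mosmo site scored 122 and 115 with mock, 43.0 and 58.3 with Foxp3, 80.4 and 67.2 with BATF and 3.88 and 4.61 with both, and its difference of -2.60 ± 0.40 (SE, adjusted p = 0.0026) stood without any 1 of the 8 libraries. This count of 43 was not stable: leaving out 1 DKO library gave 8 (without BATF library 2) to 83 (without Foxp3 library 1), and a fit of the 4 DKO groups alone gave 0. It was 18 without mock library 1, 25 without BATF library 1 and 11 without Foxp3 library 2.

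Few members differed after loss of BATF in Treg that keep Foxp3. Their median was 30.6 and 34.7 in WT Treg and 34.9 and 37.9 in BATFKO Treg, a median change of 0.14, and 2 members were higher and 1 lower, where 0.062% of all peaks were higher and 1.43% lower. The sites of this paragraph were named after these values were seen. Near Sfmbt2, which encodes a Polycomb group protein, BATFKO libraries scored 168 and 78.3 and WT Treg 19.6 and 13.3 (log2 change 2.76 ± 0.43 SE, adjusted p = 0.00015). Ctnnd2 fell by 2.12 on the log2 scale, and Spsb1 rose by 1.91. The calls at Ctnnd2 and Spsb1 were lost without any 1 of the 4 libraries. The count of 3 was 1 without WT Treg library 1 or BATFKO library 1, 6 without BATFKO library 2, and 24 (21 of them higher) with quantile scaling.

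Genes that Foxp3 is known to keep down in Treg held gained sites. A list of 13 such genes had 149 peaks, and 10 of them (6.71%) were members, where 1.05% of all peaks were. They lay at Satb1 (4), Cd40lg (2), Pde3b (2), Il2 and Il21. With both viruses all 10 fell, and 2 fell with Foxp3 alone. Over all 149 peaks of the list 61 fell and 8 rose with both viruses, and 4 fell and 0 rose with Foxp3 alone. The list was drawn up with results of these data known, so its direction is a description.

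Il2 encodes a growth factor of T cells, which Treg take up without making it, and had its gained site 26339 bp from the gene (chr3:37152293-37152693). It scored 204 and 273 in Foxp3R397W Treg, 104 and 131 in the control, 631 and 626 in Tnaive and 150.3 and 156 in WT Treg. In DKO Treg it was at 304 and 351 with mock, 158 and 221 with Foxp3 and 105 and 140.5 with both. The mock libraries were above those with Foxp3 and above those with both viruses. The changes were -0.80 ± 0.21 (SE, adjusted p = 0.039) and -1.42 ± 0.21 (SE, adjusted p = 5.1e-06). The first of these calls was lost without mock library 1 (-0.90), Foxp3 library 1 (-0.56) or mock library 2 (-0.70).

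Il21, a cytokine of helper T cells, had a site (chr3:37174712-37175112) at 54.0 and 59.3 in Foxp3R397W Treg and 23.2 and 17.4 in the control. Against mock it changed by -0.97 (adjusted p = 0.099) with Foxp3 and -1.74 (adjusted p = 6.4e-05) with both. Cd40lg, the ligand by which helper T cells activate B cells, had a site (chrX:57189330-57189730) at 96.2 and 81.5 against 48.2 and 30.1. It fell by 2.27 on the log2 scale with both viruses (adjusted p = 3.7e-06). Pde3b, a phosphodiesterase gene that Foxp3 is known to silence, had a site (chr7:114494082-114494482) at 157 and 125 against 51.8 and 26.7. In DKO Treg the Pde3b site was at 47.4 and 60.6 with mock, 37.6 and 58.3 with Foxp3 and 17.5 and 32.2 with both. Mock and Foxp3 libraries overlapped there, and only those with both viruses were lower, by 1.14 on the log2 scale (adjusted p = 0.014). That call was lost without library 1 with both viruses (-0.72) or mock library 2 (-0.97). A second Pde3b site (chr7:114415230-114415630) scored 39.0 and 32.3 with mock and 12.9 and 6.14 with Foxp3, and it did fall with Foxp3 alone (log2 change -1.87 ± 0.32 SE, adjusted p = 0.0020). It and Il2 are the 2 sites of the list that did, and it was named for this after its values were seen. Its call with Foxp3 alone was lost without Foxp3 library 2 (-1.39), and its call with both viruses (-0.96) without any 1 of the 4 libraries.

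Genes of naive and central T cells were the other group with several members. Of the 351 peaks at 12 such genes 16 (4.56%) were members: Lef1 (5), Satb1 (4), Foxp1 (4), Tcf7, S1pr1 and Bach2. With both viruses 13 of the 16 fell, and with Foxp3 alone 0 fell or rose. Over all 351 peaks 144 fell and 27 rose with both viruses, and with Foxp3 alone 0 fell and 3 rose. Satb1 stands in both lists. The Satb1 site described above scored 191 and 167 in Foxp3R397W Treg, 100.3 and 75.6 in the control and 331 and 320.0 in Tnaive.

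Foxp1, a forkhead factor of quiescent T cells, had a site (chr6:99486233-99486633) at 218 and 132 in Foxp3R397W Treg, 88.4 and 47.5 in the control and 284 and 214 in Tnaive. In DKO Treg it scored 92.8 and 92.9 with mock, 40.9 and 58.3 with Foxp3 and 10.7 and 24.2 with both viruses. The values with Foxp3 lay below mock but the change of -0.91 (adjusted p = 0.21) did not pass, while that of -2.45 (adjusted p = 4.2e-06) with both did. Tcf7, the gene of the Wnt-responsive factor TCF1 that marks naive and memory T cells, had a site 38150 bp away (chr11:52321533-52321933) at 78.2 and 62.8 against 30.1 and 36.1, and its Tnaive scores of 42.1 and 42.8 were lower than those of Foxp3R397W Treg. It fell by 2.28 with both viruses (adjusted p = 0.00013). Lef1, the partner factor of TCF1, had 5 members in a run of 16 peaks, of which 3 fell with both viruses, but 1 without mock library 2 and 1 without library 1 with both viruses. Of its sites, chr3:131190657-131191057 scored 108 and 91.8 against 51.1 and 44.8 and 5.54 and 9.36 in eTreg. Its change with both viruses, -1.28, was lost as a call without library 1 with both viruses (-0.92).

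The remaining lists held 0 to 2 gained sites each, where 1.05% of all peaks were gained and 2.42% lost. Of 172 peaks at 12 Treg identity genes 1 was a member, in Capg, an actin-capping protein gene (40.5 and 43.4 against 14.8 and 20.7), while 19 met the mirror rule for lost sites. Of 214 peaks at 16 effector Treg genes 0 were members and 26 were lost sites. The 2 members among 186 peaks of helper lineage factors were near Runx1 and Eomes, the 1 among 236 peaks of TCR-induced genes was near Nr4a1, and the 2 among 76 peaks of effector cytokines were those of Il2 and Il21 above. All 5 fell with both viruses, by 2.26 at Runx1, 2.47 at Eomes and 1.11 at Nr4a1. The Nr4a1 call was lost without library 1 with both viruses (-0.99) or mock library 2 (-0.46), and that of Capg (-1.33) without mock library 1 (-1.31), library 1 with both viruses (-1.22), mock library 2 (-1.35) or library 2 with both viruses (-1.44). Among marker lists of other cell types, 2 of the 36 CD8 and NK cell peaks (5.56%) were members, near Eomes and Prf1, as was 1 of the 23 myeloid peaks (4.35%), at Itgam, an integrin gene. Both the Prf1 (-1.14) and the Itgam site (-1.72) fell with both viruses, and both calls were lost without library 1 with both viruses or mock library 2. The B cell, erythroid and housekeeping lists held 0.

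A minority of the gained sites lay in runs. The members lay near 540 genes, of which 456 had 1 member and 10 had 4 or more. Only 80 members formed runs, 23 of them, each of at least 3 members with no gap over 50 kb. No such count was made for other peaks. The longest run held 7 of the 12 peaks between chr11:54063117 and 54105427, at Pdlim4, which encodes a PDZ and LIM domain protein, and P4ha2, a collagen prolyl hydroxylase. Its 7 members had mean scores of 30.3 to 147 in Foxp3R397W Treg, 6.81 to 66.3 in the control, 58.7 to 298 in Tnaive and 1.14 to 9.79 in eTreg. The 5 other peaks of the run also had higher means in Foxp3R397W Treg, with differences of 0.30 to 1.43, so the whole stretch was higher. All 7 members were lower in WT Treg than in Tconv, 5 fell with both viruses and 1 was called with Foxp3 alone. Without Tconv library 2 the first count was 4, and the single call with Foxp3 was lost without mock library 2 or Foxp3 library 2. The site in Pdlim4 (chr11:54063117-54063517) was at 377 and 581 in mock DKO Treg, above all libraries outside the DKO groups, and at 183 and 278 with both viruses. Its change of -1.05 was lost as a call without library 1 with both viruses (-0.75) or mock library 2 (-0.74).

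**Figure D4:**
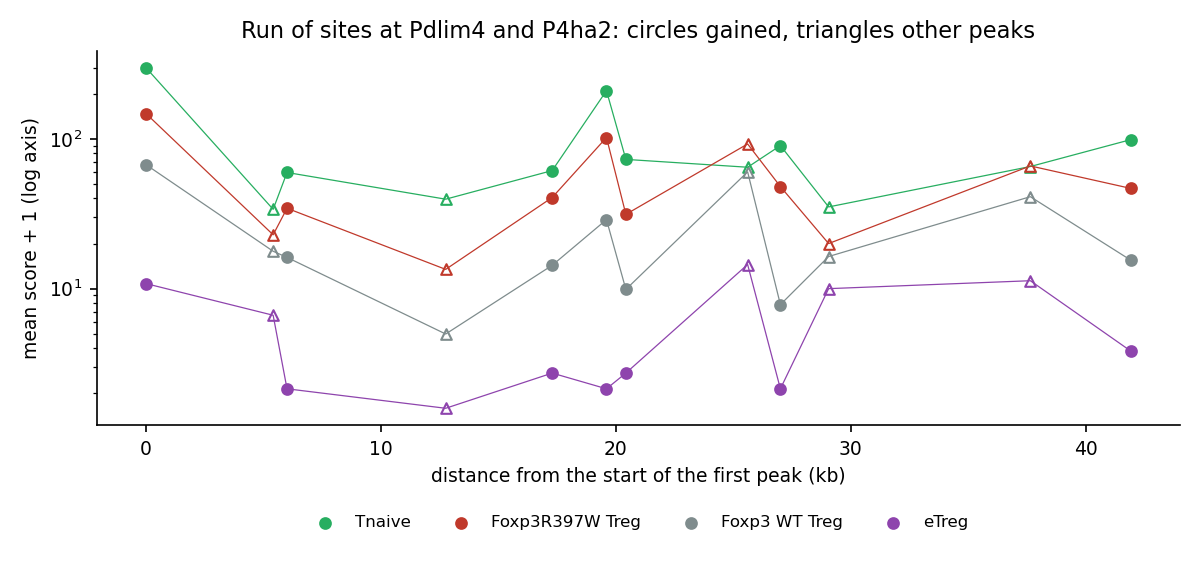
Mean score + 1 (log axis) of 2 libraries at the 12 peaks of the run at Pdlim4 and P4ha2, by distance (kb) from the first peak; filled circles, the 7 gained sites; open triangles, the 5 other peaks; lines join the peaks of a group. Foxp3R397W Treg lie above the control at all 12 peaks, and eTreg lie below Foxp3R397W Treg, the control and Tnaive at each.

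Wwox had 6 members, Tgfbr3, the gene of a co-receptor for TGF-beta, had 5, and Pakap, which anchors protein kinase A, had 4. With both viruses 4 of the Wwox, 3 of the Tgfbr3 and 3 of the Pakap sites fell. Without mock library 2 these were 2 for Wwox and 1 for Pakap, and without library 1 with both viruses 2 for Wwox. Other runs were those of Lef1 (5 of 16 peaks), Adamts14 and Prf1 (4 of 8), Fbln1 (4 of 6), Dhx40 (4 of 8), Als2cl and Fam240a (4 of 10) and Slc16a10 (4 of 7), and in each of these between 2 and 4 members fell with both viruses. These counts moved with single libraries: without mock library 2 they were 1 at Fbln1, 0 at Dhx40 and 2 at Adamts14 and Prf1, without library 1 with both viruses 0 at Dhx40 and 2 at Adamts14 and Prf1, and without library 2 with both viruses 1 at Dhx40. The Prf1 site (chr10:61306188-61306588), beside the gene of the cytotoxic pore protein perforin, scored 425 and 498 in Tnaive and 78.2 and 97.1 in Foxp3R397W Treg, against 35.5 and 44.8 in the control. The site in the body of Fbln1, an extracellular matrix gene (chr15:85232976-85233376), scored 548 and 576 in Foxp3R397W Treg, more than in Tnaive (399.8 and 409), and 229 and 249 in the control. It fell from 390.1 and 520.0 with mock to 104 and 149 with both viruses (log2 change -1.85 ± 0.21 SE, adjusted p = 1.1e-07). Its promoter site, printed above, scored 58.5 and 65.7 against 31.1 and 28.1.

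A small set of 16 members (2.21%) was closed in naive cells, with a mean Tnaive score under 10. Of all peaks with a mean of at least 30 in Foxp3R397W Treg, 2.71% were under 10 there. From cTreg to eTreg 12 of the 16 rose and 1 fell, where 19.7% of all peaks rose and 17.4% fell. Of the lost sites, whose median in Tnaive was 6.45, 86.3% rose, so such a rise was not particular to these members. Of the 683 members at 30 or more in Tnaive, 10 rose and 552 fell from cTreg to eTreg. With both viruses 5 fell and 1 rose, where 10.5% of all peaks fell and 12.9% rose. With Foxp3 alone 0 passed the test, where 0.814% of all peaks fell and 1.01% rose. The 5 were 3 without mock library 2 or without library 1 with both viruses. The mean in mock DKO Treg was above that in Foxp3R397W Treg at 7 of the 16.

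Near Ccl20, which encodes a chemokine that draws CCR6-bearing cells, the site (chr1:83137886-83138286) scored 58.0 and 56.5 in Foxp3R397W Treg and 14.5 and 13.4 in the control. It scored 1.28 and 6.48 in Tnaive, 5.33 and 1.10 in cTreg and 46.5 and 65.5 in eTreg. No library outside eTreg and Foxp3R397W Treg was above 21, and the cTreg and eTreg libraries did not overlap (log2 change 3.95 ± 0.81 SE, adjusted p = 0.00030). The Lpar3 promoter site, whose window is printed above, scored 50.1 and 34.9 against 6.52 and 15.4, 7.66 and 6.48 in Tnaive and 36.6 and 48.0 in eTreg. Lpar3 encodes a receptor for lysophosphatidic acid.

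A run of 3 sites in the body of Wwox, a gene at a common fragile site, was also closed in naive cells. The middle one (chr8:115071391-115071791) scored 58.5 and 45.9 in Foxp3R397W Treg, 19.2 and 16.05 in the control, 1.28 and 3.89 in Tnaive and 142 and 186 in mock DKO Treg. The DKO libraries other than those with both viruses were above all the others, and those with both viruses scored 55.3 and 86.4, a change of -1.22 (adjusted p = 0.043). That call was lost without mock library 1 (-1.41), library 1 with both viruses (-0.91) or mock library 2 (-1.03). Another 3 Wwox members, nearer the start of the chromosome, were open in Tnaive: chr8:114869224-114869624 scored 289.9 and 249 there and 46.4 and 56.7 in mock DKO Treg. Wwox thus held gained sites that were closed and gained sites that were open in naive cells.

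The naive-low member with the highest score overlapped the 3′ end of Foxp3 and the neighbouring Ccdc22 (chrX:7595106-7595506). It scored 109 and 128 in Foxp3R397W Treg and 39.5 and 72.2 in the control, with 86.8 and 94.9 in WT Treg and 11.4 and 15.9 in Tconv. It was at 39.5 or more in every Treg library and was higher in WT Treg than in Tconv by 2.66 (adjusted p = 6.5e-05). With Foxp3 or both viruses it did not pass the test (-0.55 and -0.03). Near Ctnnd2, which encodes a delta-catenin, a site closed in naive cells went from 2.11 and 0 with mock to 27.2 and 38.0 with both viruses, a rise of 4.23 (adjusted p = 4.8e-07).

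**Figure D5:**
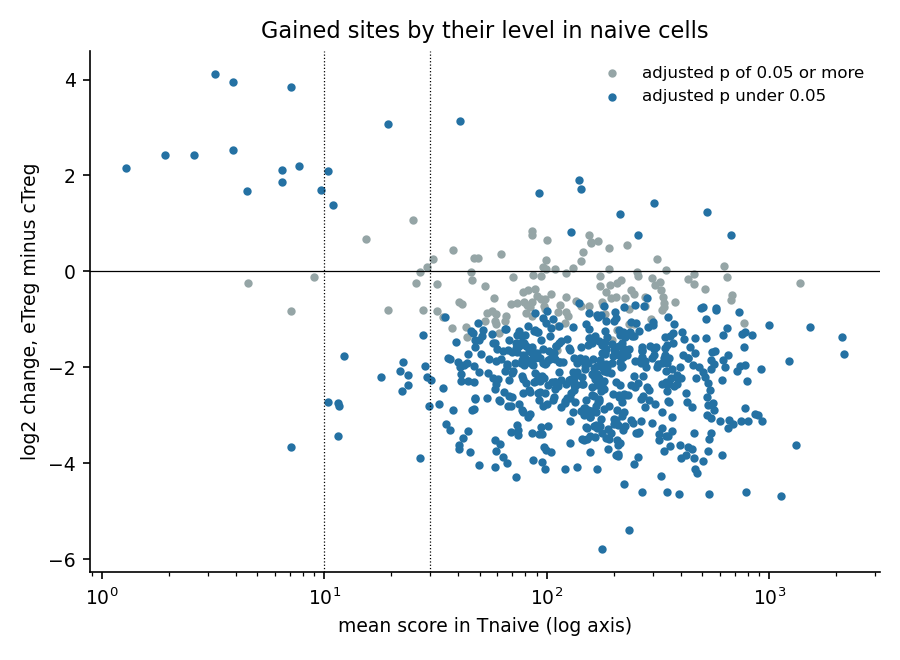
log2 change of score + 1 from cTreg to eTreg against mean score in Tnaive (log axis) for the 725 gained sites; blue, adjusted p under 0.05; grey, the others; dotted lines at scores of 10 and 30. Of the 16 sites left of the first line 12 rose, while of the 683 at 30 or more 552 fell and 10 rose. Over all peaks 19.7% rose and 17.4% fell.

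Scores at marker genes of other cell types also differed from the control, up for CD8, NK and erythroid cells and down for B and myeloid cells. The CD8 and NK list includes 2 gained sites (near Eomes and Prf1) and the myeloid list 1 (at Itgam), which these libraries had chosen. Summed over 36 peaks of 9 CD8 and NK cell genes, the score was 1683 and 1877 in the Foxp3R397W libraries and 1425 and 1442 in the control, and 3884 and 4076 in Tnaive. Over 19 peaks of 5 B cell genes it was 739 and 693 against 963 and 974, and over 23 peaks of 6 myeloid genes 830 and 968 against 1027 and 1087. Over 7 peaks of 4 erythroid genes it was 657 and 635 against 604 and 606. Each of these genes had some score in every library, and 3 B cell, 2 myeloid and 1 erythroid marker had no peak. The Foxp3 peak scored 339 and 319 in the Foxp3R397W libraries against 418 and 385 in the control. The part of these differences in the gain of sites was not tested. In DKO Treg the B cell sums were 638 and 656 with mock, 888 and 958 with Foxp3 and 1132 and 1259 with both viruses. The CD8 and NK sums were 1728 and 1775 with mock, 1497 and 1518 with Foxp3 and 1629 and 1823 with both viruses. The myeloid sums were 990 and 1217 with mock, 980 and 981 with Foxp3 and 1906 and 2204 with both viruses, and the part of these differences in the changes with Foxp3 or both viruses was not tested.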

How the data were processed

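ATAC-seq measures open chromatin; 26 libraries of 13 groups, with 2 libraries each, and 69316 peaks were used. The deposited table holds a normalized peak score per library, a signal that the authors had scaled so that 1 read is worth a fixed amount in each library. All values (100%) came back as whole reads within 0.02 of a whole number, from 3716499 to 25462278 reads in peaks per library. Per the submitters' processing notes, the tools were MACS2 2.2.7.1, edgeR 3.36.0 and 3.38.4, Bowtie2 2.4.1 and, for DiffBind, 3.4.11 and 3.0.15, with build mm10. What each did is not given in the sources used here. Every mapped column of the 26-library table was used, and the smaller 22-library table served to compare library names and for values of 4 further libraries.

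Scores were tested as log2(score + 1) with limma 3.58.1 in R 4.3.3, with 1 fit of all 13 groups (13 residual degrees of freedom), moderated variances with a trend and Benjamini-Hochberg adjustment over all peaks at 0.05. A fold on this scale understates changes of low scores. Means, counts and figures were made with Python 3.11.15, pandas 2.3.3, numpy 2.4.6 and matplotlib 3.10.9. On simulated data for Foxp3 virus minus mock over 69316 peaks, 66 of 100 peaks changed 2-fold and 100 of 100 changed 4-fold were recovered, with 13 false calls. The changed peaks were drawn only from those with a mean score above the median of all peaks. Recovery at the gained sites was not simulated. With Foxp3 virus their median was 25.0, below that of all peaks at 40.4. Alternatives were a pseudocount of 5, quantile scaling, a filter at a mean score of 10, edgeR 4.0.16 on the recovered reads, only the groups compared, a replicate block, each library left out and stricter member limits. The quasi-likelihood test of edgeR called 1101 peaks for Foxp3 virus minus mock, against 1265 by limma.

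Peaks were given to the nearest protein-coding gene body in RefSeq (GRCm38.p6, the assembly of mm10) within 100 kb. Named, among members with a gene within 100 kb, were the 12 largest differences, the 12 largest falls and up to 6 rises with Foxp3 virus, up to 4 genes per list, the 6 highest in naive cells, the 6 highest among those under 10 there, 3 sites on each side of the limit and up to 8 genes with 4 or more members. One of these sites is not reported here. Other names are said to be chosen after their values were seen. The members and gene lists were chosen with earlier results of these data known. The comparisons of both viruses with Foxp3 alone and of the Foxp3 effects were added after the data were seen. Sequence beyond the promoter windows was not used here.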

Additional observations from a re-analysis of the deposited data

Results flagged for a closer look

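The change with Foxp3 virus differed between cells with and without BATF virus at 43 gained sites, by the test of that difference (limma, adjusted p under 0.05 over all peaks), and 42 of the 43 were lower with BATF present. The number was 0 when only the DKO libraries were fitted. No explanation was tested.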

How the results depend on the processing

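No called value of a named site changed sign under any alternative run. For Foxp3 virus minus mock the count of 106 members was 45 with quantile scaling, 48 with only the groups compared and 42 among the 139 members at a difference of 1.5, and 26 to 101 with 1 library left out (26 without mock library 2). For BATF virus minus mock the count of 12 was 2 at a difference of 1.5, 4 at a mean score of 60 and 2 to 13 with 1 library left out (2 without mock library 2). Stricter member limits shrank the counts by construction, to 139 and 352 sites. At a difference of 1.5 and at a mean score of 60 the counts were 112 and 301 for both viruses minus mock, 102 and 282 for both minus BATF, 123 and 309 for Treg minus Tconv, 119 and 302 for eTreg minus cTreg, 119 and 307 for Teff minus Tnaive, 118 and 290 for cTreg minus Tnaive, and 53 and 200 for both viruses minus Foxp3. With 1 library left out, the counts were 415 to 507 for both viruses minus mock, 328 to 420 for both minus BATF, 498 to 539 for Treg minus Tconv, 531 to 541 for eTreg minus cTreg, 545 to 566 for Teff minus Tnaive, 426 to 439 for cTreg minus Tnaive and 207 to 331 for both minus Foxp3 (207 without Foxp3 library 2). For BATFKO minus WT Treg the count of 3 was 8 with a pseudocount of 5, 24 with quantile scaling, 11 by edgeR, 5 with only the groups compared, 0 at a mean score of 60 and 1 to 6 with 1 library left out. Both viruses minus Foxp3 gave 143 with only the groups compared. The difference of the Foxp3 effects, 43, was 0 with only the groups compared, 7 at a difference of 1.5 and 8 to 83 with 1 library left out. The causes were not tested beyond the smaller number of sites, libraries or residual degrees of freedom.

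With the replicate number as a block, the counts were 206 for Foxp3 virus minus mock (204 lower), 25 for BATF virus minus mock, 17 for BATFKO minus WT Treg, 124 for the difference of the Foxp3 effects, 569 for both viruses minus mock and 515 for both minus BATF. Deviations of same-numbered libraries correlated at 0.147 to 0.215 among the DKO groups, 0.327 between Foxp3R397W and its control and 0.0435 to 0.162 among the others. Mean scores over all peaks were lower in library 1 than in library 2 of each DKO group. They were 156 against 185 with mock, 150 against 169 with Foxp3, 143 against 178 with BATF and 147 against 170 with both. With 2 numbers per group and no label that says what a number stands for, the labels give the samples only a shared number.

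Limits are the 2 libraries per group, the low read numbers at members in the libraries with both viruses, the library names that differ between tables, and members chosen by a threshold that many sites barely pass.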

Other observations

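The smaller table holds 4 libraries that are not among the 26, the pairs it calls Tnaive and Teff. Over all its peaks the Teff pair had medians of 107 and 105, against 137 and 126 at the 718 gained sites with a matching peak, so the gained sites lay above the typical peak in that pair and below it in the Tnaive pair. At the peak inside Foxp3 the Teff pair scored 695 and 733. The pairs called cTreg and eTreg there scored 1010.3 and 1017 and 779 and 853.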
